A study of Mus musculus with 5 samples.

Results

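The simple epithelial keratins Krt7, Krt8, Krt18 and Krt19 were taken by name, and their RNA levels were compared between sgMef2d and sgControl cells. Of these 4 genes, 3 had counts among the 12934 genes listed, namely Krt7, Krt8 and Krt18, and Krt19 was not analysed here. EpH4 is a non-transformed line of BALB/c mouse mammary epithelium that became immortal without an introduced oncogene. Both groups expressed Cas9 from a lentivirus, selected with blasticidin, and a second lentivirus, selected with puromycin, added the sgRNA. In sgControl cells this was a control guide, and in sgMef2d cells it was aimed at Mef2d, the gene of the transcription factor MEF2D. All cells were kept in DMEM with fetal bovine serum, penicillin and streptomycin. Poly(A) RNA was sequenced from 3 sgControl and 2 sgMef2d libraries, with strand-marked cDNA. The methods describe 2 sgRNAs against Mef2d, and the labels number the sgMef2d libraries without saying which sgRNA each carried. Nor do the labels say whether the libraries of a group came from separate cultures, so the p-values measure only the spread between these libraries, which may be technical.

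Keratins are the intermediate filament proteins of epithelial cells, and each filament is built from pairs of a type II and a type I chain. Krt8 (type II) and its usual partner Krt18 (type I) are the keratins of simple, single-layered epithelia, where Krt7 (type II) and Krt19 (type I) are often made as well. In the mammary gland these 4 keratins mark the luminal cells, while Krt5 and Krt14 form the main pair of the basal, myoepithelial layer. A keratin chain left without a partner is unstable as a protein, which RNA counts do not show.

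Krt18 was lower in sgMef2d cells, Krt7 was lower without passing the test, and the groups overlapped for Krt8. The fall of Krt18 was 16.2%, the difference in Krt7 was 10.1%, and that in Krt8 was under 1%. So the type II and type I members of the usual pair, Krt8 and Krt18, stood at about equal levels per length of exons in sgControl cells. In sgMef2d cells their ratio was about 1.2 to 1. The starting level depends on the length used, and reads shared with a Krt8 pseudogene may be missing from it. Over the same comparison, 6 of 8 other keratins tested rose, among them Krt14 and Krt6a, where 3.67% of all genes did, but 3 of the 6 (Krt5, Krt6b and Krt17) passed the expression filter only through the sgMef2d libraries and could only be seen to rise.

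The libraries held between 13601145 and 20498563 counts, and 3 counts corresponded to between 0.146 and 0.220 CPM (counts per 1000000 counts of a library). Of 12483 genes tested with edgeR's quasi-likelihood test, 992 (7.95%) passed an adjusted p of 0.05 (Benjamini-Hochberg), 458 (3.67%) higher and 534 (4.28%) lower in sgMef2d. The sgControl replicate 1 stood apart from sgControl replicates 2 and 3: the chi-square of its counts against theirs was 10.3 and 13.3 per degree of freedom, against 1.98 between replicates 2 and 3 and 2.02 between the sgMef2d libraries. Without it, 3639 genes passed. Mef2d, the targeted gene, was at 64.3, 76.9 and 71.5 CPM in sgControl replicates 1, 2 and 3 and at 64.2 and 65.8 CPM in sgMef2d replicates 1 and 2. The level of Mef2d RNA differed by -0.12 on the log2 scale (adjusted p = 0.400 by edgeR's quasi-likelihood test). By the same test it differed by -0.19 (adjusted p = 0.00550) without sgControl replicate 1 and by -0.060 (adjusted p = 0.77) without sgControl replicate 2. RNA counts need not show a Cas9 edit, so this gene is a weak check of the labels. The epithelial genes Cdh1 (E-cadherin) and Epcam were at 253 ± 18.3 and 254 ± 2.0 CPM (SD, n = 3) in sgControl cells, and both were at 277 CPM in sgMef2d cells (SD 9.36 and 1.56, n = 2).

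Krt18 encodes the type I chain that pairs with KRT8. Its annotation (ENSMUSG00000023043.7, GRCm38 chr15:102028180-102032027, plus strand) has 1 transcript with 7 exons. Krt18 had 14847, 9641 and 9671 counts in sgControl replicates 1, 2 and 3, and 9856 and 8942 counts in sgMef2d replicates 1 and 2. These corresponded to 724, 684 and 709 CPM in sgControl and to 580.0 and 602 CPM in sgMef2d cells. Both sgMef2d libraries lay below every sgControl library. The mean level was 705 ± 20.3 CPM in sgControl (SD, n = 3) and 591 ± 15.6 CPM in sgMef2d cells (SD, n = 2). This gave Krt18 a log2 fold change of -0.26 (SE 0.058, 95% interval -0.38 to -0.13, adjusted p = 0.0207 by edgeR's quasi-likelihood test). As a percentage this was a change of -16.2%, with an interval from -23.3% to -8.51%. Krt18 was the single member of the 3 tested to pass, beside the 7.95% of all genes that did. The change was small among the genes that fell: 35 of the 534 lower genes had a smaller absolute log2 fold change, and the median over all 534 was 0.43. The call was lost without sgControl replicate 2 (-0.28, adjusted p = 0.0647), without sgMef2d replicate 1 (-0.23, adjusted p = 0.283) and without sgMef2d replicate 2 (-0.29, adjusted p = 0.199), and the log2 fold change was negative in all 16 settings. In bulk RNA a smaller number of cells that make Krt18 cannot be told apart from less Krt18 RNA per cell.

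Krt8 encodes the type II partner. It is annotated at GRCm38 chr15:101996698-102004482 on the minus strand (ENSMUSG00000049382.10), with 1 transcript of 9 exons. Krt8 had 20706, 13251 and 13175 counts in sgControl replicates 1, 2 and 3, and 16154 and 14760 counts in sgMef2d replicates 1 and 2. In CPM these were 1010, 940 and 966 in sgControl and 951 and 994 in sgMef2d cells. The groups overlapped, since both sgMef2d libraries lay between the lowest and the highest sgControl library. Mean Krt8 levels were 972 ± 35.4 CPM in sgControl (SD, n = 3) and 972 ± 30.6 CPM in sgMef2d cells (SD, n = 2). The log2 fold change of Krt8 was 0.00087 (SE 0.060, adjusted p = 0.995 by edgeR's quasi-likelihood test). The 95% interval ran from -0.13 to 0.13 on the log2 scale, or from -8.71% to 9.67%, so in this fit a change beyond about 10% in either direction lay outside it. The interval moved with the libraries: -0.20 to 0.15 without sgControl replicate 2 and -0.039 to 0.097 without sgControl replicate 1. The sign of the Krt8 log2 fold change turned with the normalization and in 9 of 15 alternatives, with no setting past the threshold. Of the 50-base words in the Krt8 transcript, 26.9% also occur in Krt8-ps, an annotated pseudogene that was not analysed here, so reads from those stretches may have been split or dropped in counting.

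Krt7 encodes the other type II chain of simple epithelia. The gene (ENSMUSG00000023039.17, GRCm38 chr15:101411043-101430313, plus strand) has 5 annotated transcripts, 2 of them protein-coding, and 9 exons in the longest coding one. Krt7 had 33685, 21926 and 21423 counts in sgControl replicates 1, 2 and 3, and 23687 and 21752 counts in sgMef2d replicates 1 and 2. These were 1642, 1555 and 1570 CPM in sgControl and 1394 and 1465 CPM in sgMef2d cells. As for Krt18, both sgMef2d libraries lay below every sgControl library. Mean Krt7 levels were 1589 ± 46.8 CPM in sgControl (SD, n = 3) and 1429 ± 50.04 CPM in sgMef2d cells (SD, n = 2). The log2 fold change of Krt7 was -0.15 (SE 0.062, 95% interval -0.29 to -0.018). Its unadjusted p was 0.0298 and its adjusted p 0.161 by edgeR's quasi-likelihood test, so Krt7 did not pass, and 23.2% of all genes had an unadjusted p below 0.05. Without sgControl replicate 1 the adjusted p was 0.00143 with a log2 fold change of -0.13, and in the other 14 alternatives it ran from 0.0564 to 0.637. Groups without overlap were common, at 41.1% of all genes tested with 20.5% lower and 20.6% higher in sgMef2d, so the 2 members of 3 in this state are read beside those shares.

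**Figure D1:**
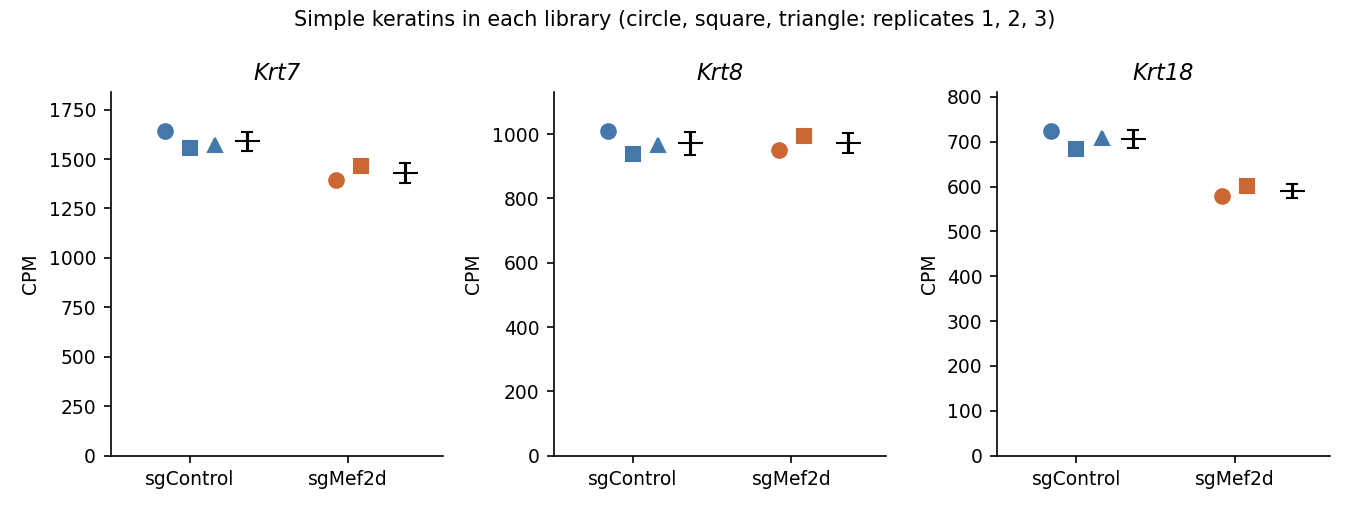
The vertical axes give CPM from 0, with a panel each for Krt7, Krt8 and Krt18, one point per library (circle, square and triangle for replicates 1, 2 and 3), and the bar with whiskers giving the mean and SD of the group. The sgMef2d points lie below the sgControl points for Krt7 (1394 and 1465 against 1555 to 1642 CPM) and Krt18 (580.0 and 602 against 684 to 724 CPM), and among them for Krt8.

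The fourth gene, Krt19, is a short type I keratin that pairs with type II chains in ducts and simple epithelia, and its annotation lies on chromosome 11 (GRCm38 chr11:100140810-100148665, minus strand). Its RNA level in these cells was not analysed here. The type I side of the simple keratins below is therefore Krt18 alone, and a ratio of Krt7 to Krt19 could not be computed.

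The spread within groups was small for the 3 genes measured, with coefficients of variation between 2.65% and 3.64%. Counting error alone gave at most 1.06% for any library. The precision was thus set by the difference between libraries and not by depth, and intervals from counting cover counting error only, since PCR copies were not identified.

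The promoters are shown because Krt8 and Krt18 lie in 1 cluster and are made as a pair, while their fold changes were unlike. Each line gives the RefSeq sequence on GRCm38.p6 from 250 bases before to 50 after the start that RefSeq gives, 5′ to 3′ on the gene's strand, for 3 of the 4 genes. The positions are chr15:101412153-101412452 (plus) for Krt7, chr15:102004293-102004592 (minus) for Krt8 and chr15:102027966-102028265 (plus) for Krt18. These RefSeq starts lie 1360, 140 and 36 bases inside the GENCODE gene bounds given above for Krt7, Krt8 and Krt18. Capitals mark matches, on either strand, to the letters TATAA (TATA box), GGGCGG (GC box, bound by SP1) and GCCNNNGGC (AP-2).
Krt7: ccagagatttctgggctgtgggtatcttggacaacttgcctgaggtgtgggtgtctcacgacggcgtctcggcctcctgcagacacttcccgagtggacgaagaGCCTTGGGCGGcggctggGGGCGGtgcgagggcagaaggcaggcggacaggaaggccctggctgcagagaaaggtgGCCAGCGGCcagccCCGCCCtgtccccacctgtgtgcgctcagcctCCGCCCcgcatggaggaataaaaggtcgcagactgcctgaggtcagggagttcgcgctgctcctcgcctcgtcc
Krt8: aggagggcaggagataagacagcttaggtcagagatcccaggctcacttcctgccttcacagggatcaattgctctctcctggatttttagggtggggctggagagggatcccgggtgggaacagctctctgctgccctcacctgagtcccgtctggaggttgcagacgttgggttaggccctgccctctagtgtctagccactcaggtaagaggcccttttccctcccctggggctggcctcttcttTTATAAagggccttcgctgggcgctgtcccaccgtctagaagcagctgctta
Krt18: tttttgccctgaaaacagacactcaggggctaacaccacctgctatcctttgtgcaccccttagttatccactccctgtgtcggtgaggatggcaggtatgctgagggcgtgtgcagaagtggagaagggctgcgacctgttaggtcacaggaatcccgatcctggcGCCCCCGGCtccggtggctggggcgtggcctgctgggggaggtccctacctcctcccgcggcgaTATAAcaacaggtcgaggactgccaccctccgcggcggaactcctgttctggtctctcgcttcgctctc
The Krt7 window had 4 GC boxes and 2 AP-2 matches, the first GC box overlapping an AP-2 match, and no TATAA. Its G and C content was 66.3%. In Krt8 the only match was TATAA, read on both strands in overlapping letters across the RefSeq start, in a window of 58.0% G and C. Krt18 had TATAA 19 bases before its RefSeq start and 1 AP-2 match, at 61.3% G and C. Over 32851 mouse promoters of the same length, 24.9% held TATAA, 35.7% a GC box and 16.6% an AP-2 match. The MEF2 motif (CTA and TAG with 4 bases between) and the AP-1 motif TGANTCA, found in 3.69% and 7.81% of all promoters, had no match in these 3 windows. A match describes letters and not a bound site.

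Levels were compared between the members per length, as CPM per kilobase of all annotated exons of the gene. On that scale Krt8 stood at 496 ± 18.1 and Krt18 at 491 ± 14.1 in sgControl cells (SD, n = 3), closer to each other than their spread. The Krt8 value may miss reads shared with Krt8-ps, as above. Krt7 stood at 225 ± 6.64 on the same scale. In sgMef2d cells the order was Krt8 at 497 ± 15.6, Krt18 at 411 ± 10.9 and Krt7 at 203 ± 7.10 (SD, n = 2), with no overlap between neighbours in the order. The levels of all 3 genes were high: by this measure Krt8 ranked between 55 and 79, Krt18 between 54 and 93 and Krt7 between 153 and 192 of 12934 genes over the 5 libraries. The place of Krt7 depends on the length used, because its annotated exons sum to 7049 bases and its longest coding sequence to 1371. Per kilobase of coding sequence Krt7 was highest, at 1159 ± 34.1 in sgControl, above Krt8 at 661 ± 24.0 and Krt18 at 556 ± 16, so Krt8 and Krt18 were not equal on that scale.

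The ratio of Krt8 to Krt18, the usual pair, was 1.024, 1.009 and 0.9998 per length of exons in sgControl replicates 1, 2 and 3. In sgMef2d replicates 1 and 2 it was 1.203 and 1.211. The sgMef2d libraries lay above all sgControl libraries, by 0.26 on the log2 scale, with SDs of 0.017 and 0.0072 within the groups. The exact two-sided permutation test gave p = 0.2, which is the smallest value that 3 libraries against 2 allow (10 arrangements). Leaving out any library gave a difference between 0.25 and 0.27. The libraries are the same as in the tests above, so the ratio restates the fold changes of Krt8 and Krt18 on a scale free of the library total. The level of the ratio also depends on how reads shared by Krt8 and Krt8-ps were counted.

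**Figure D2:**
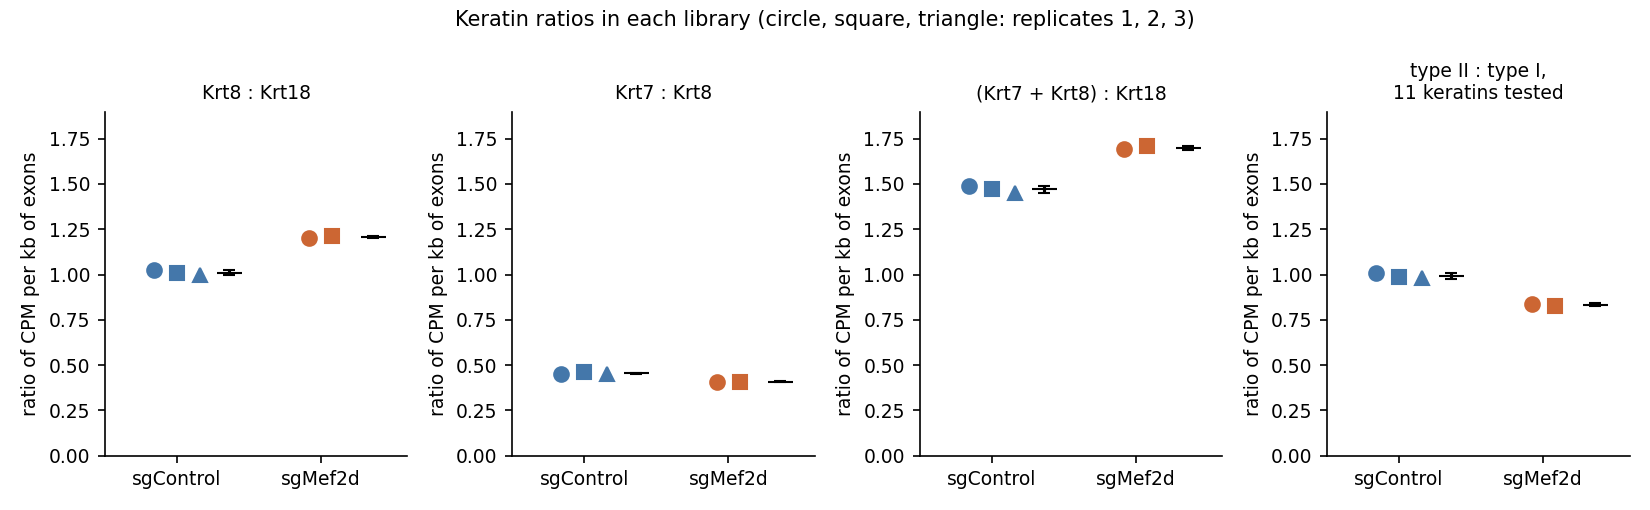
The vertical axes give ratios of CPM per kilobase of exons from 0, with one point per library (circle, square and triangle for replicates 1, 2 and 3) and the mean and SD of each group. The Krt8 to Krt18 ratio lay between 0.9998 and 1.024 in sgControl and at 1.203 and 1.211 in sgMef2d, and the ratio over every keratin tested moved the other way.

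With Krt7 added, the sum of Krt7 and Krt8 over Krt18 was 1.49, 1.47 and 1.45 in sgControl replicates 1, 2 and 3 and 1.69 and 1.71 in sgMef2d replicates 1 and 2. That difference was 0.21 on the log2 scale. Krt7 over Krt18 was 0.452 to 0.464 in sgControl and 0.490 and 0.496 in sgMef2d, a difference of 0.10. Krt7 over Krt8 was lower, at 0.407 and 0.409 in sgMef2d against 0.452 to 0.460 in sgControl, a difference of -0.15. When all 11 keratins tested entered (6 of type II, 5 of type I, a choice made after seeing the data), the type II to type I ratio went from 1.01, 0.988 and 0.981 to 0.838 and 0.829, a difference of -0.25. In sgMef2d cells the simple keratins thus lay further towards type II and the whole set further towards type I, where the summed type I level without Krt18 went from between 252 and 257 to 513 and 545 CPM per kilobase. Each of these 5 ratios had groups without overlap and an exact permutation p of 0.2, or 0.2 adjusted over the 5.

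As a share of all counts, Krt7, Krt8 and Krt18 together took 0.338%, 0.318% and 0.325% in sgControl replicates 1, 2 and 3, and 0.292% and 0.305% in sgMef2d replicates 1 and 2. The sgMef2d shares were lower than all 3 sgControl shares. The 8 other keratins tested took between 0.0559% and 0.0562% in sgControl and 0.117% and 0.122% in sgMef2d cells. Most of that was Krt14, with 0.0872% and 0.0925% in sgMef2d. All 11 keratins together took 0.383% ± 0.00993 (SD, n = 3) and 0.417% ± 0.0127 (SD, n = 2), so the simple keratins made up the larger part in both groups.

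**Figure D3:**
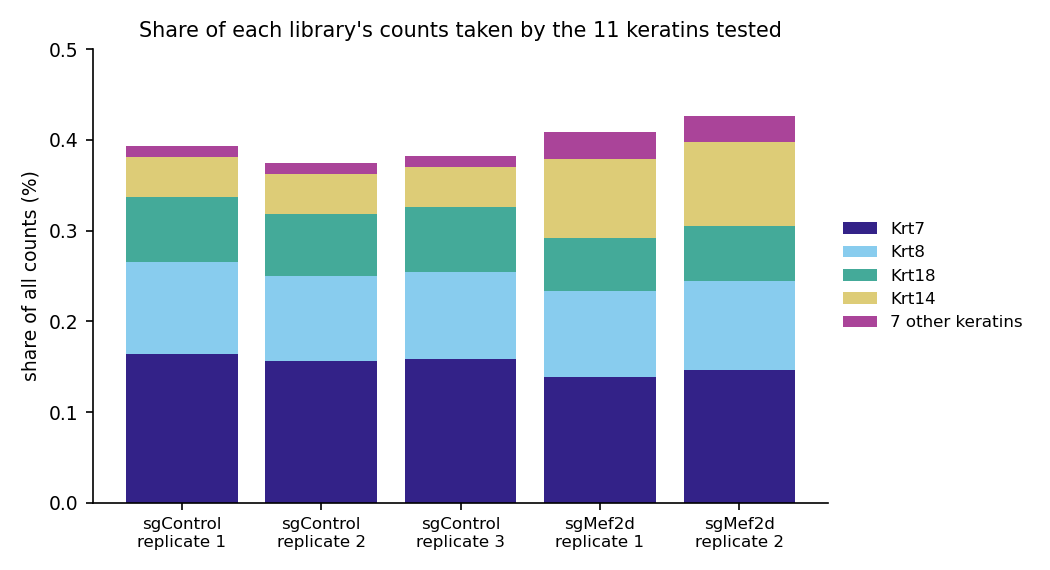
Stacked bars from 0 give, for each of the 5 libraries, the percentage of all counts that fell on the simple keratins (3 genes) and on other keratins tested. The simple keratins took 0.292% and 0.305% in sgMef2d against 0.318% to 0.338% in sgControl, while the other keratins took 0.117% and 0.122% against at most 0.0562%.

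Of 47 other keratin genes on the list, 8 had counts and were tested, and 6 rose while Krt10 and Krt80 did not pass, with a median log2 fold change of 2.19 against 0.0031 over all genes tested. A gain in these keratins in this comparison was known when the list was drawn up, and Krt5, Krt6b and Krt17 had under 2 sgControl libraries at the filter's 0.673 CPM, so the count and the median are a description. Krt14, the type I keratin of basal cells, went from 439 ± 3.50 CPM in sgControl (SD, n = 3) to 902 ± 38.6 CPM in sgMef2d cells (SD, n = 2), or by 1.04 on the log2 scale (adjusted p = 1.68e-06 by edgeR's quasi-likelihood test). Krt5, its type II partner, had 3, 0 and 1 counts in sgControl replicates 1, 2 and 3 and 260 and 211 counts in sgMef2d replicates 1 and 2, or 14.8 CPM on average. Krt14 was thus well expressed in sgControl cells in which Krt5 was at or under the 3-count limit.

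Krt6a, Krt6b, Krt16 and Krt17 are induced in wounded or activated stratified epithelia. Krt6a (type II) rose from 4.22 ± 0.643 to 144 ± 2.38 CPM, a log2 fold change of 5.07 (adjusted p = 1.03e-10 by edgeR's quasi-likelihood test). Krt16 (type I) rose by 2.09 to 17.6 CPM (adjusted p = 3.26e-06 by the same test). Krt17 (type I) had 6, 8 and 17 counts in sgControl and 50 and 51 counts in sgMef2d cells, or 3.19 CPM on average in sgMef2d. Its log2 fold change was 2.29, and between 1.81 and 2.95 with a library left out. Krt17 passed the expression filter only through the sgMef2d libraries, so it could only be seen to rise. Krt6b (type II) had 0 counts in every sgControl library and 22 and 28 counts in sgMef2d, at least 8.24-fold higher when 3 counts per library stand for the limit. Krt10 (type I, made in differentiating epidermis) was at 3.88 and 4.98 CPM and did not pass (adjusted p = 0.287). Krt80, a type II keratin of many epithelia, was at 107 CPM in both groups, with a log2 fold change of 0.00076 whose sign turned with the normalization.

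**Figure D4:**
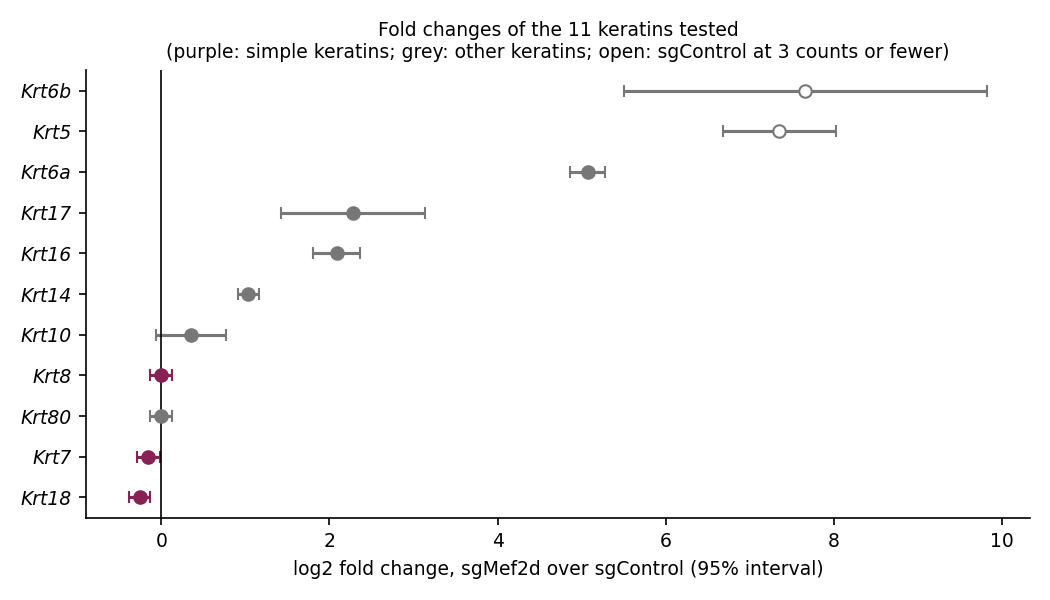
The horizontal axis gives the log2 fold change of sgMef2d over sgControl with its 95% interval for the 11 keratins tested, purple for the simple keratins and grey for the others, and open circles for Krt5 and Krt6b, whose sgControl libraries held 3 counts or fewer. Krt18 (-0.26) and Krt7 (-0.15) lie left of 0, Krt8 and Krt80 at 0, Krt10 at 0.36, and the 6 others from 1.04 upwards.

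The keratin genes share chromosomal clusters. On chromosome 15 the stretch from Krt7 to Krt18 spans 621 kb and includes Krt8, with 25 keratin genes annotated in it, of which 7 had counts. Krt80 lies outside this stretch, on the Krt7 side (chr15:101347444-101370162). Krt18 is a type I gene within this type II cluster, 23.7 kb from Krt8. The next gene with counts on the other side of Krt18 is Eif4b (a translation initiation factor), which was at 862 and 869 CPM in the groups (log2 fold change 0.011, adjusted p = 0.928). Krt5, 284 kb from Krt8 within the same cluster, was the nearest gene with counts on that side. The closest genes of Krt7 with counts were Gm35853, which was at 0.812 and 1.11 CPM, and Krt88, which was at 0.321 and 0.0673 CPM and not tested. Krt7 overlaps the antisense gene Gm671, and Krt8 overlaps the antisense gene Gm36026. Whether the counting used strand is not given in the sources used here, but these held between 6 and 12 and between 7 and 15 counts per library, against at least 8942 for each of the 3 keratins.

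The pattern over the 5 libraries was compared between genes by the root mean square of the difference in log2 CPM after each gene's sgControl mean was subtracted, among 8044 genes that averaged 4 or more in log2 CPM. Closest to Krt18 were BC055324 (distance 0.0181, log2 fold change -0.24) and Tmem123 (0.0218, -0.24). For Krt7 they were Stx5a (0.0118, -0.17) and Anxa7 (0.0140, -0.15). For Krt8 they were Atg16l1 (0.00491) and Kctd10 (0.00595), both with groups that overlapped. The distances between members were 0.0662 for Krt7 and Krt18, 0.0979 for Krt7 and Krt8, and 0.162 for Krt8 and Krt18. The genes named above were picked as the closest, so larger distances between members were nearly fixed in advance. With the sgControl mean subtracted, these distances largely restate the fold changes. By closeness to Krt8, Krt18 ranked 6572 among these genes, and by closeness to Krt18, Krt8 ranked 3036 and Krt7 219.

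Keratin filaments are tied to desmosomes and hemidesmosomes by plakins and armadillo proteins and handled by chaperones, kinases and 14-3-3 proteins. Of 28 such genes, all tested, 4 rose and 1 fell (17.9%, against 7.95% of all genes), with a median log2 fold change of 0.09. Sfn, the epithelial 14-3-3 sigma protein, went from 66.7 ± 8.30 to 93.0 ± 1.76 CPM (log2 fold change 0.47, adjusted p = 0.00783 by edgeR's quasi-likelihood test). Jup (plakoglobin) went from 136 ± 12.6 to 173 ± 10.8 CPM (0.35, adjusted p = 0.0201), and the desmosomal genes Ppl and Pkp3 passed as well. Dst has 20 annotated transcripts, which gene counts do not separate, and among its products is a plakin that ties keratin to hemidesmosomes. Dst went from 610 ± 109 to 415 ± 7.04 CPM (-0.56, adjusted p = 0.0159 by the same test). Its sgControl values of 484, 671 and 676 CPM show replicate 1 lower than the others. With either sgMef2d library left out, Sfn, Jup and Dst no longer passed (adjusted p between 0.0886 and 0.297), nor did Jup and Dst without sgControl replicate 2 (0.0548 and 0.0513). Dst did not pass by DESeq2 either (adjusted p = 0.0578).

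Among other intermediate filament genes 7 of 18 were tested and 2 rose, against 3.67% of all genes, with a median of 0.21. Vim (vimentin, the filament of mesenchymal cells) went from 10.8, 13.0 and 11.9 CPM in sgControl replicates 1, 2 and 3 to 34.1 and 37.4 CPM in sgMef2d replicates 1 and 2, a log2 fold change of 1.59 (adjusted p = 3.95e-06 by edgeR's quasi-likelihood test). Lmnb2 (lamin B2) rose by 0.34 (adjusted p = 0.00928) and lost the call with either sgMef2d library left out (0.0979 and 0.185). Iffo2 differed by 0.21 without passing (adjusted p = 0.109), and passed without sgControl replicate 1 (0.0140), with the replicate block (0.030) and with the length and GC trend removed (0.0115).

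The other genes of luminal and simple epithelia were set beside the simple keratins, which share that cell type. Of 40 on the list 29 were tested, 4 rose and 2 fell (20.7%, against 7.95% of all genes), with a median of 0.15, and the summed level was 2138 to 2155 CPM in sgControl and 2217 to 2227 CPM in sgMef2d cells. Of the 4 that rose, Tfap2c passed the expression filter only through the sgMef2d libraries. Lcn2 (lipocalin-2, a secreted iron-siderophore binding protein) fell by 0.64 on the log2 scale, from 49.9 ± 2.61 to 32.1 ± 0.967 CPM (adjusted p = 5.90e-04 by edgeR's quasi-likelihood test). Trps1, a GATA-type repressor, fell by 0.35 (adjusted p = 0.00438). Rab25, a GTPase of epithelial recycling endosomes, rose by 0.42 (adjusted p = 0.00623). Trps1 and Rab25 lost their calls with either sgMef2d library left out (adjusted p between 0.0751 and 0.119). Cdh1 and Epcam, above, differed by 0.13 each without passing (adjusted p = 0.272 and 0.183, for Epcam 0.00661 without sgControl replicate 1). Not analysed here were 11 genes of the list, among them the luminal regulators Elf5 and Pgr and the milk protein genes Csn2 and Wap.

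Of 24 basal and myoepithelial genes 20 were tested, 8 rose and 3 fell, where 3.67% of all genes rose and 4.28% fell, with a median of 0.18 and a summed level of 3422 to 3825 CPM in sgControl and 4043 to 4100 CPM in sgMef2d cells. This list holds Krt14, which went from 439 to 902 CPM on average, so the higher sum does not show a gain across the list. Of the 8 genes of the list that rose, 3 (Krt5, Krt17 and Col17a1) passed the expression filter only through the sgMef2d libraries. Trp63, the gene of the p63 factor of basal cells, rose from 29.1 ± 2.67 to 48.6 ± 2.05 CPM (log2 fold change 0.74, adjusted p = 4.84e-04 by edgeR's quasi-likelihood test). Cav1 (caveolin-1) rose by 0.57 (adjusted p = 1.18e-04). Acta2 (smooth muscle actin of myoepithelial cells) was among the 3 that fell, from 18.6 to 10.6 CPM. How far a change in the mix of luminal and basal cells enters the Krt18 difference was not tested.

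Candidate regulators of simple keratin genes, among them AP-1, ETS, AP-2, SP and KLF factors, had 20 of 22 members tested, of which 5 rose (25.0%, against 3.67% of all genes) and 15 did not pass, with a median of 0.15. Fosl1 (the AP-1 subunit FRA1) rose by 0.45 (adjusted p = 0.00125 by edgeR's quasi-likelihood test), from 62.0 ± 1.84 to 84.7 ± 1.44 CPM. Ets2 rose by 0.36 (adjusted p = 0.00356) and Klf5 by 0.39 (adjusted p = 0.0227), and both lost the call with either sgMef2d library left out (adjusted p between 0.0649 and 0.196). Junb and Tfap2c passed as well, Tfap2c having passed the filter only through the sgMef2d libraries.

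Markers of other cells were read in the same libraries. Of 10 fibroblast markers 7 were tested, where 7.95% of all genes passed, and 2 rose (Col3a1 and Dcn, from means of 1.85 and 1.38 to 5.04 and 3.39 CPM) and 2 fell, and the summed level was 1417 to 1551 CPM in sgControl and 1093 to 1126 CPM in sgMef2d cells. Postn (periostin) went from 778 ± 5.11 to 481 ± 5.85 CPM (log2 fold change -0.69, adjusted p = 3.01e-05 by edgeR's quasi-likelihood test) and Col1a2 from 425 ± 12.8 to 292 ± 6.06 CPM (-0.54, adjusted p = 2.32e-04). Pdgfra differed by -0.25 (adjusted p = 0.106, and 0.00128 without sgControl replicate 1). Col1a1 went the other way, from 168 ± 38.0 to 219 ± 21.9 CPM, without passing (0.39, adjusted p = 0.135 by edgeR's quasi-likelihood test). Mesenchymal genes were thus expressed in cells labelled as epithelial, and their part in the keratin values was not tested. Of 8 immune markers Cd68 and Csf1r were tested, and neither passed (adjusted p = 0.488 and 0.751 by edgeR's quasi-likelihood test), with sums of at most 4.11 CPM. Of 5 adipocyte markers Fabp4 was tested and fell by 1.25 on the log2 scale, from 3.07 to 1.33 CPM, and the 6 endothelial markers were not analysed here.

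**Figure D5:**
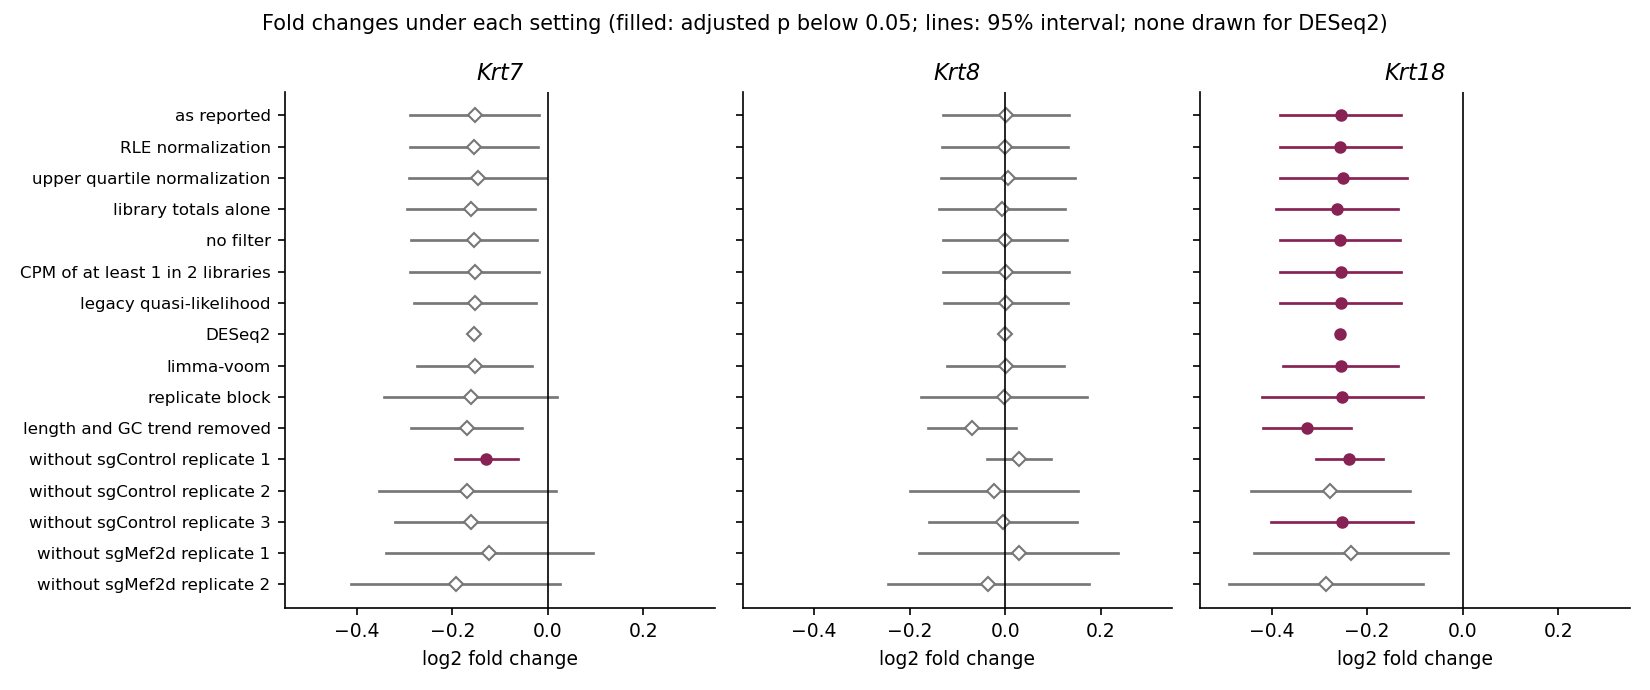
The horizontal axes give the log2 fold change of Krt7, Krt8 and Krt18 as reported and under 15 alternatives, with 95% intervals (none for DESeq2) and filled points where the adjusted p was below 0.05. Krt18 was negative in all 16 settings and past the threshold in 13, Krt7 was negative in all 16 and past it in 1, and Krt8 stayed within 0.07 of 0 on either side.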

How the data were processed

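Reads were aligned by the authors to GRCm38 with STAR2, after FASTQC and before RSeQC, and the submitters' processing notes also name CASAVA and Subread. The authors deposited raw counts per gene, not normalized, and genes whose highest count was under 11 were absent from the list. All 12934 identifiers matched GENCODE M21, which gave symbols and positions, and 0 columns were left unused. These deposited counts were analysed in R 4.3.3 and edgeR 4.0.16 with TMM factors (0.996 to 1.00), its default expression filter by condition (12483 genes kept) and the bias-adjusted quasi-likelihood test, two-sided, with Benjamini-Hochberg adjustment over all genes at 0.05, and no replicate block. CPM are counts per 1000000 of the TMM-scaled library total. Ratios were tested by exact permutation over libraries in scipy 1.17.1. Alternatives were other normalizations and filters, DESeq2 1.42.0, limma-voom (limma 3.58.1), removal of each library's length and GC trend (loess, span 0.3), a replicate block, other gene lengths and each library left out. Genes named were the members, Mef2d, Cdh1, Epcam and Vim as checks, every other keratin tested, up to 3 genes per list with the smallest p at an average log2 CPM of at least 4, nearest neighbours and most alike genes. Genes named beyond these (Ppl, Pkp3, Acta2, Junb, Tfap2c, Col1a1, Col3a1, Dcn, Fabp4, Cd68, Csf1r, Col17a1) were chosen after their values were seen, and no alternatives were run for them singly. The members and lists were chosen with earlier results of these data known. The scripts were tested on simulated counts.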

Additional observations from a re-analysis of the deposited data

How the results depend on the processing

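Krt18 kept its negative direction under all 15 alternatives and Krt7 under all 15, while Krt18 lost the threshold in 3 and Krt7 gained it in 1, each with a library left out. Leaving out single libraries moved the log2 fold change of Krt18 between -0.29 and -0.23, of Krt7 between -0.19 and -0.12 and of Krt8 between -0.036 and 0.029, and gave between 0 and 2 simple keratins and between 234 and 3639 genes past the threshold. With 1 sgMef2d library, that library was assumed to vary like the sgControl libraries. Krt8 turned negative at -0.00016 with RLE factors, -0.0067 with library totals, -0.00081 without a filter, -0.00022 with DESeq2, -0.0030 with the replicate block and -0.069 with the length and GC trend removed, which also gave 1520 genes past the threshold. Krt80 turned in the same 6, at -0.00024, -0.0068, -0.00090, -0.00018, -0.0071 and -0.023, and ran from -0.016 to 0.021 with libraries left out. The causes were not tested. The type II to type I ratio reversed to -0.25 over every keratin tested. With the replicate block, 1254 genes passed, and Krt7 was at -0.16 (adjusted p = 0.314), Krt8 at -0.0030 and Krt18 at -0.25 (0.0386). Deviations of same-numbered libraries from their group means correlated at 0.011 and -0.00092. With 2 sgMef2d libraries the deviations mirror each other, so these values cannot show whether same-numbered libraries share a batch. The numbers are used here only to name the libraries. The levels per length moved by more than 1 SD between replicates with coding length (Krt7, Krt8, Krt18) and with transcript length (Krt7), and by less with library totals or a library left out. Alternatives for a Krt7 to Krt19 ratio were not run.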
